A study of Mus musculus with 22 samples.

Results

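The genes described here carry cargo between the endoplasmic reticulum (ER) and the Golgi apparatus. They were picked by name, as the genes of the COPII and COPI vesicle coats, the Arf GTPases, the p24 (Tmed) proteins, the KDEL receptors, the TRAPP tethers and 6 partner genes, and 58 of the 12596 genes in the table matched. By role they were 12 COPII genes, 9 COPI genes, 6 Arf GTPases, 9 p24 cargo receptors, 2 KDEL receptors, 14 TRAPP subunits and 6 SNARE and Golgi partners. Sec16b, Sec31b, Tmed6, Tmed11, Kdelr3, Trappc2b, Trappc3l and Trappc14 were not analysed here.

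RNA came from 11 mice on a C57Bl/6 background. All of them came from a cross of Th-cre mice, which make Cre recombinase in cells that use the tyrosine hydroxylase promoter, with Slc6a2-eGFP/Rpl10a mice. The second transgene puts green fluorescent protein on the ribosomal protein Rpl10a under the noradrenaline transporter gene Slc6a2, so that ribosomes of noradrenergic cells can be immunoprecipitated with their RNA. Infusion was with hTyr (human tyrosinase, the enzyme that starts melanin synthesis) in 5 mice and with the fluorescent protein EYFP, as the control, in 6. Each mouse gave an immunoprecipitated library (IP), labelled noradrenergic, and an input library of total hindbrain RNA. The 4 groups are written EYFP IP, EYFP input, hTyr IP and hTyr input, and a single mouse is called by its IP library (IP_501 and so on). How the agents were delivered, which cells took them up, and the age and sex of the mice are not given in the sources used here.

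COPII coats bud vesicles from the ER toward the Golgi: the GTPase Sar1 recruits the inner coat of Sec23 and Sec24, which holds cargo, and Sec13 with Sec31 builds the outer cage. COPI coats, made of the coatomer complex and recruited by Arf GTPases, bring proteins back to the ER and between Golgi cisternae, and the KDEL receptors use them to return escaped ER chaperones. Neurons send every membrane and secreted protein of the cell body, axon and dendrites through this route, and several of its genes are known targets of ER stress and Golgi stress transcription factors.

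Values are log2 CPM, the log2 of a gene's reads scaled to the size of its library with a small number of reads added, and the differences given below are on that log2 scale. Libraries held 12654489 to 25100142 reads in the table, and each of the 58 genes had at least 55 reads in every hTyr IP library. The IP libraries held the noradrenergic genes named as a check: Dbh, which makes noradrenaline, was higher in IP than in input by 4.02 in EYFP mice and 4.30 in hTyr mice, Slc6a2 by 3.94 and 4.47, and Th by 1.99 and 2.78. The mean level of 12 of 13 noradrenergic markers ran from 5.60 to 6.61 in EYFP IP, from 5.89 to 7.35 in hTyr IP and from 3.69 to 4.01 in input. Glial RNA was still present in IP: 8 of 8 astrocyte markers averaged 7.62 to 8.17 in IP and 7.47 to 7.81 in input, and 10 of 10 oligodendrocyte markers 8.49 to 8.85 and 8.59 to 8.97. Astrocyte markers were higher in IP by group mean, at 7.94 against 7.67 in EYFP mice and 7.965 against 7.62 in hTyr mice. The 10 of 10 markers of other neurons averaged 6.09 to 6.59 in IP and 5.71 to 5.96 in input, with every IP library above every input library. A higher level in IP was thus not particular to noradrenergic markers.

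Of the 48 genes whose promoters were matched, 9 carry short elements that are known from ER and Golgi stress promoters. Shown are 4 of them: Nucb1 and Tmed3, which had the smallest p between hTyr and EYFP in IP, Copb1, the most enriched coat gene, and Sec24d, as an example of overlapping elements. Each stretch lies in the 250 bases before the start that RefSeq gives. For Sec24d that start falls inside a longer annotated span of the gene (chromosome 3, 123264801 to 123365641). Each stretch is written 5′ to 3′ on the gene's strand and comes from RefSeq (build GRCm38.p6). Capitals mark the element.
Nucb1, chr7:45510409-45510489, minus strand: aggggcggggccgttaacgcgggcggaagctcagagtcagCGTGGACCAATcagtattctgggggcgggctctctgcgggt
Tmed3, chr9:89705198-89705284, minus strand: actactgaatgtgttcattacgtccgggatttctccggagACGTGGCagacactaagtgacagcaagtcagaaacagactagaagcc
Sec24d, chr3:123267430-123267495, plus strand: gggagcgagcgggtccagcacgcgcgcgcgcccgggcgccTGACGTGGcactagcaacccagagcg
Copb1, chr7:114254681-114254748, minus strand: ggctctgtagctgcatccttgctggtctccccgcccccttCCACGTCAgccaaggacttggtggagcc
The element in Nucb1 is the reverse strand of the ER stress element II (ATTGG, 1 base, CCACG). Across 32851 RefSeq promoters, both strands searched, 10 (0.0304%) held it, and Nucb1 was the 1 of 48 matched genes that did. Sec24d and, on the reverse strand, Copb1 hold the unfolded protein response element TGACGTGG, as does Arf1, against 0.563% of all promoters. Tmed3 holds the Golgi stress element ACGTGGC, found in 2.02% of all promoters and also in Arf1, Arf5, Sar1a, Sec24c, Sec24d and Trappc2. In Sec24d and Arf1 the last 2 elements overlap. The longer ER stress element (CCAAT, 9 bases, CCACG) was in 0.113% of promoters and in 0 of the 48. A match is a run of letters and not a shown binding site.

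The first comparison asks which of these RNAs the immunoprecipitation enriched. Its main fit did not pair the IP and input libraries of a mouse. A fit that did, with the mouse as a block, was an alternative. In EYFP mice 26 of the 58 genes were higher in IP, 9 were lower and 23 did not pass at an adjusted p under 0.05, where 28.5% of all genes were higher and 28.1% lower. The hTyr mice had 29 higher, 7 lower and 22 that did not pass, against 27.4% and 27% of all genes. The counts by role given below are to be read beside these shares of all genes. The median log2 difference of the 58 genes was 0.16 in EYFP mice and 0.26 in hTyr mice, beside -0.03 and -0.04 over all genes. Of the genes called, 24 were higher and 6 lower in both treatments and 0 went opposite ways, while 5 passed in EYFP mice alone, 6 in hTyr mice alone and 17 in neither. In bulk RNA such as this, more cells of a type and more RNA per cell cannot be told apart.

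**Figure D1:**
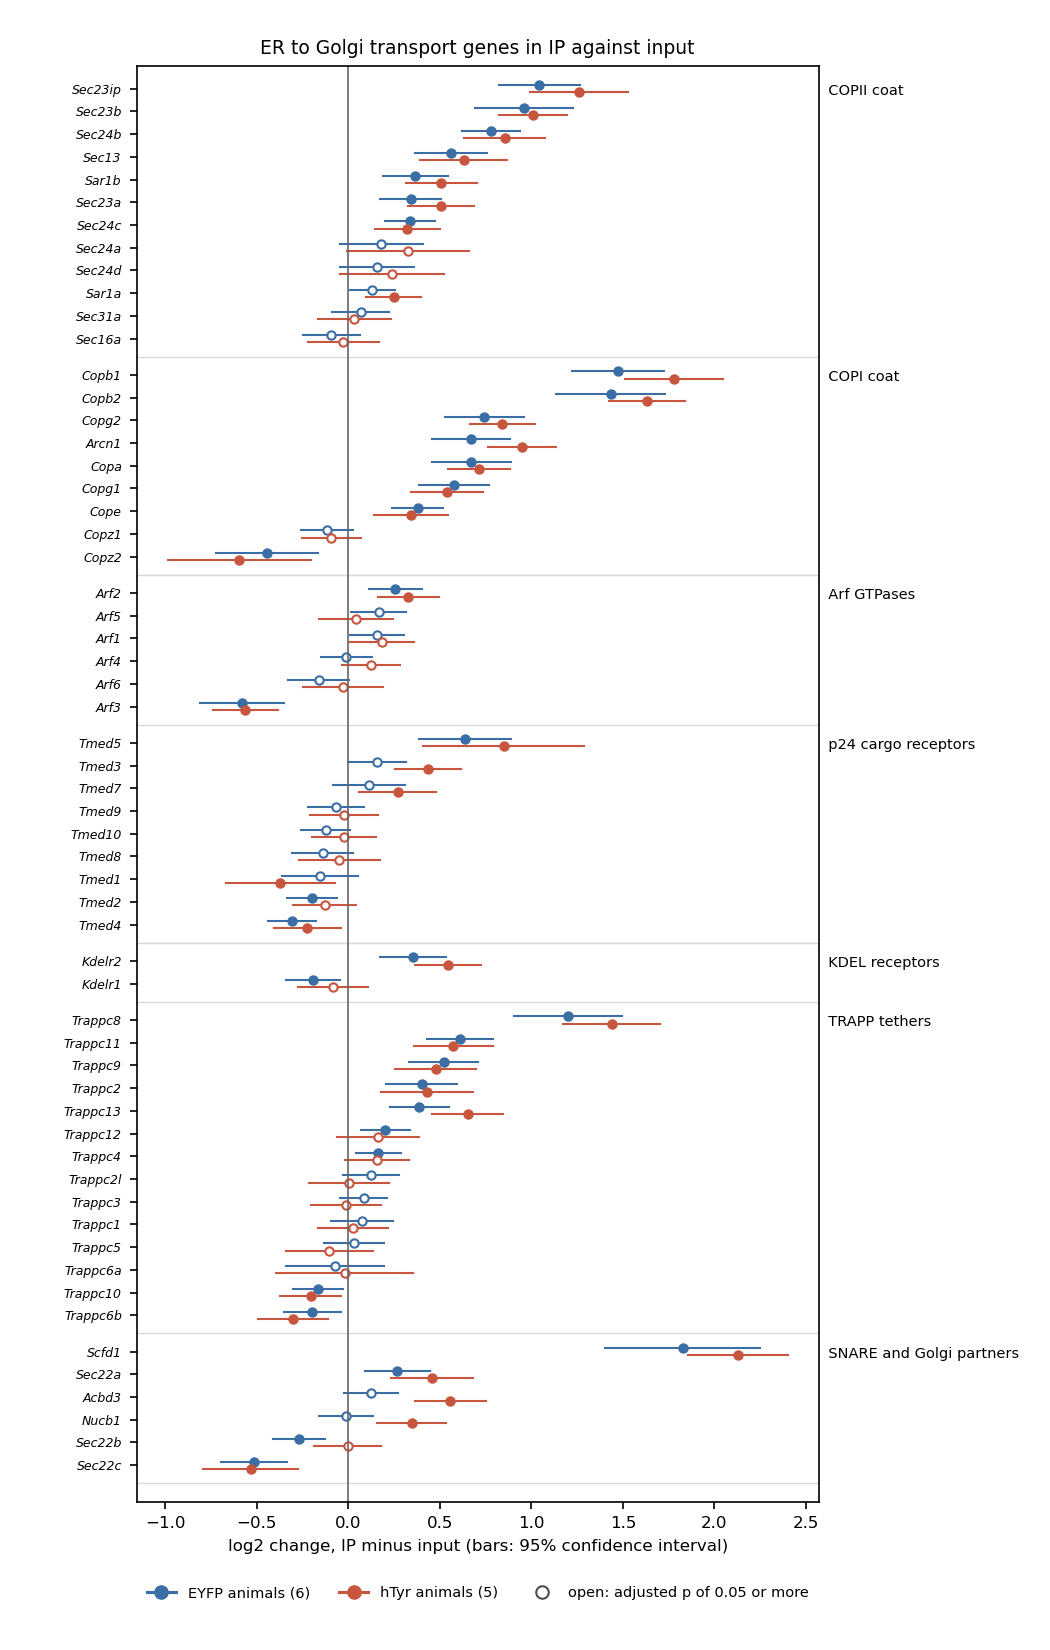
Log2 difference between IP and input for the 58 genes, by role, in the 6 EYFP and the 5 hTyr mice; points are fitted differences, bars 95% confidence intervals, and open points have an adjusted p of 0.05 or more. The coatomer genes Copb1 and Copb2 and the SNARE partner Scfd1 lie farthest to the right in both treatments, and Arf3, Copz2 and Sec22c lie to the left.

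Among the SNARE and Golgi partners Scfd1, the Sly1 protein that helps syntaxin 5 complexes to form, had the largest difference of the 58 genes (chromosome 12, 51377513 to 51450104). Its level in EYFP IP ran from 4.96 to 6.27 with a median of 5.67, and in EYFP input from 3.09 to 4.27 with a median of 3.83. The hTyr IP libraries stood at 5.78, 5.83, 5.89, 5.96 and 6.12, and the hTyr input libraries at 3.50, 3.63, 3.65, 3.89 and 4.27. Every IP library was above every input library. The difference was 1.83 (SE 0.20, adjusted p = 3.14e-06) in EYFP mice and 2.13 (SE 0.13, adjusted p = 6.76e-09) in hTyr mice, larger than that of 99.9% of all genes in EYFP mice and 99.8% in hTyr mice.

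Of the 6 partner genes, 2 were higher and 2 lower in EYFP mice, and 4 higher and 1 lower in hTyr mice. The 3 Sec22 genes, which encode related proteins, did not move together. Sec22c was lower in IP by 0.52 in EYFP mice (adjusted p = 0.000102) and by 0.53 in hTyr mice (adjusted p = 0.00163). Its EYFP IP libraries lay between 4.69 and 5.20 (median 4.90) and its EYFP input libraries between 5.36 and 5.52 (median 5.42). Its hTyr IP values were 4.61, 4.66, 4.68, 5.13 and 5.24, just below the lowest hTyr input value, since input stood at 5.24, 5.36, 5.43, 5.47 and 5.50. Sec22a was higher, by 0.27 and 0.46, but once a library's dependence on the length and GC content of transcripts was taken out (the length and GC trend) the differences were 0.04 (adjusted p = 0.696) and 0.12 (adjusted p = 0.392), and the EYFP call was also lost without mouse IP_512 (adjusted p = 0.0685). Sec22b, the form with an established SNARE role between ER and Golgi, was lower in EYFP mice by 0.27 (adjusted p = 0.00295) and differed by -0.003 in hTyr mice (adjusted p = 0.978). With the length and GC trend removed Sec22b was lower in both, by 0.44 and 0.26.

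Most of the COPI coat was higher in IP. Of its 9 genes 7 were higher in IP in each treatment, Copz2 was lower and Copz1 passed in neither, with a median difference of 0.67 in EYFP mice and 0.71 in hTyr mice. Copb1 and Copb2 encode the beta and beta-prime subunits. Copb1 ran from 5.61 to 6.49 (median 6.17) in EYFP IP and from 4.56 to 4.89 (median 4.67) in EYFP input. In hTyr mice it stood at 6.04, 6.15, 6.18, 6.33 and 6.63 in IP and at 4.13, 4.33, 4.58, 4.68 and 4.70 in input. The IP and input values of Copb1 did not overlap, and the difference was 1.47 (SE 0.12, adjusted p = 4.69e-07) in EYFP mice and 1.78 (SE 0.13, adjusted p = 2.08e-08) in hTyr mice.

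Copb2 showed the same separation. Its EYFP IP libraries ran from 6.41 to 7.54 (median 7.11) and its EYFP input libraries from 5.40 to 5.80 (median 5.67). Its hTyr IP libraries held 6.99, 7.04, 7.17, 7.33 and 7.37, against 5.44, 5.47, 5.48, 5.54 and 5.82 in hTyr input. The difference was 1.43 (SE 0.14) and 1.63 (SE 0.10). The other called subunits were Copa (alpha; 0.67 in EYFP mice and 0.71 in hTyr mice), Arcn1 (delta; 0.67 and 0.95), Copg1 (0.58 and 0.54) and Copg2 (0.74 and 0.84, both gamma), and Cope (epsilon; 0.38 and 0.34). Copa ran from 7.43 to 8.16 in EYFP IP and from 7.02 to 7.25 in EYFP input, and Arcn1 from 6.85 to 7.59 and from 6.38 to 6.68. In hTyr mice Copa held 7.66, 7.68, 7.71, 7.87 and 7.97 in IP and 7.01 to 7.14 in input, and Arcn1 held 7.25, 7.45, 7.53, 7.55 and 7.57 in IP and 6.31 to 6.61 in input. Neither gene's IP libraries overlapped its input libraries.

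The zeta subunits went the other way or did not pass. Copz1, the ubiquitous form, differed by -0.12 (adjusted p = 0.144; 0.043 after quantile normalization) and -0.09 (adjusted p = 0.316). Copz2, a rarer form with 55 to 119 reads in hTyr IP, was lower by 0.45 (SE 0.13, adjusted p = 0.00908) and 0.60 (SE 0.19, adjusted p = 0.0124). In EYFP IP it ran from 2.23 to 3.04 (median 2.69) and in EYFP input from 3.02 to 3.26 (median 3.12), so these groups overlapped slightly. In hTyr IP it stood at 2.15, 2.40, 2.46, 2.81 and 3.10, and in hTyr input at 2.96, 3.12, 3.14, 3.18 and 3.49. Without hTyr mouse IP_502 its fall in hTyr mice was 0.48 and did not pass (adjusted p = 0.0636), and with a pseudocount of 5 CPM the differences were -0.27 and -0.35.

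Coatomer is a heptamer, so the levels of its 7 main subunits (Copa, Copb1, Copb2, Copg1, Arcn1, Cope and Copz1) were also set on a scale per kilobase of transcript. The length was that of the longest annotated transcript of each gene, and which transcripts were expressed is not known here. Levels of different genes on this scale depend on that choice. In EYFP input the mean level per kilobase ran from 2.93 for Copb1 to 5.54 for Cope, and in EYFP IP from 4.41 for Copb1 to 6.08 for Copg1. The SD among the 7 subunits within a library, on the log2 CPM per kilobase scale, was 0.876 to 1.01 in EYFP input and 0.931 to 1.22 in hTyr input. It was 0.516 to 0.643 in EYFP IP and 0.391 to 0.605 in hTyr IP. The subunits were thus closer to each other in every IP library than in any input library. This measure was chosen after the values were seen and is a description.

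**Figure D2:**
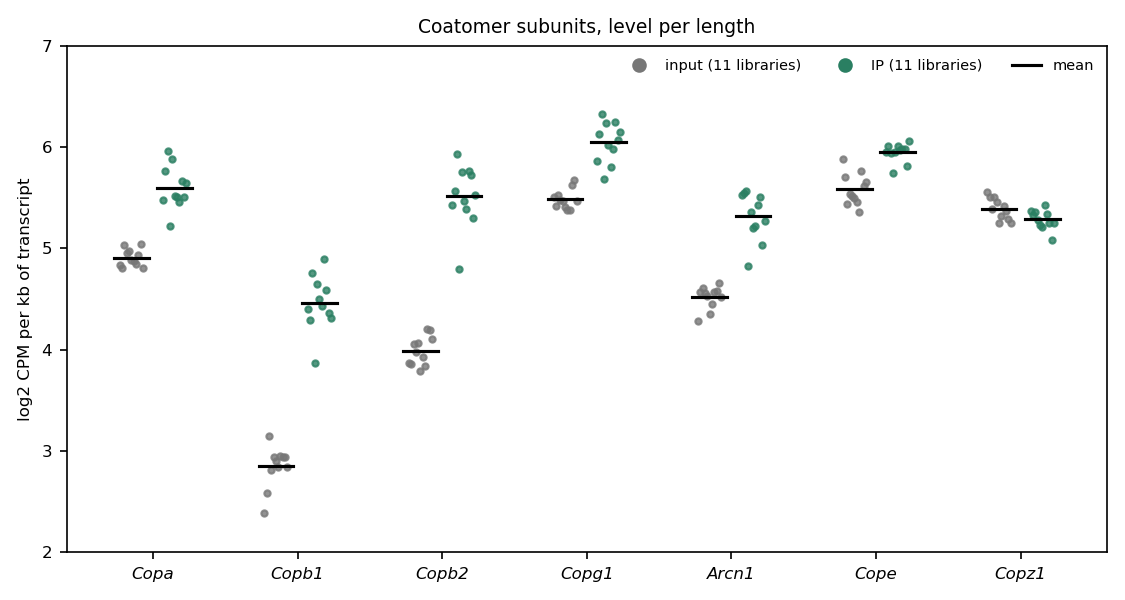
Level of the 7 coatomer subunits as log2 CPM per kilobase of transcript, with 1 point per library (11 input and 11 IP) and a bar at the mean. Copb1, Copb2, Copa and Arcn1 are higher in IP, and so are Copg1 and Cope by smaller differences, while Copz1 is not. The levels of the subunits lie closer together in IP than in input.

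COPII genes were higher in IP in 7 of 12 cases in EYFP mice and 8 of 12 in hTyr mice, and 0 were lower. Sec23ip, a phospholipase-like protein that binds Sec23 at ER exit sites, had the largest difference. It ran from 5.19 to 5.93 (median 5.56) in EYFP IP and from 4.42 to 4.70 (median 4.47) in EYFP input, and it held 5.19, 5.38, 5.58, 5.63 and 5.95 in hTyr IP against 4.08, 4.24, 4.30, 4.33 and 4.47 in hTyr input. The difference was 1.04 (SE 0.10, adjusted p = 1.47e-06) and 1.26 (SE 0.13, adjusted p = 4.82e-07), with no overlap. Sec13, of the outer cage, was higher by 0.56 and 0.63, whereas its partner Sec31a differed by 0.07 (adjusted p = 0.446) and 0.03 (adjusted p = 0.795). With the mouse as a block and the length and GC trend removed Sec31a passed in EYFP mice (0.16, adjusted p = 0.0165). Sec31a stood between 6.34 and 6.73 in EYFP IP and between 6.30 and 6.54 in EYFP input, and between 6.28 and 6.73 and between 6.42 and 6.50 in hTyr mice. Sec16a, the scaffold of ER exit sites, differed by -0.09 and -0.03 and did not pass.

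The paralogs of the inner coat were enriched to different degrees. Sec23b was higher in IP by 0.96 in EYFP mice and 1.01 in hTyr mice. Its IP libraries ran from 5.47 to 6.45 in EYFP mice and stood at 5.80, 5.82, 5.89, 6.04 and 6.12 in hTyr mice, all above input at 4.81 to 5.14 and 4.81 to 4.995. Sec23a, the more abundant form, was higher by 0.34 and 0.51. It ran from 6.87 to 7.30 in EYFP IP against 6.56 to 6.88 in EYFP input, and from 7.09 to 7.32 in hTyr IP against 6.43 to 6.83 in hTyr input. With the length and GC trend removed the Sec23a difference was 0.08 (adjusted p = 0.293) and 0.13 (adjusted p = 0.0965), while that of Sec23b was 0.71 and 0.64 and still passed.

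Sec24 proteins bind the cargo, and the 4 paralogs differ in what they bind. Sec24b was higher in IP by 0.78 and 0.85, from 5.75 to 6.04 in EYFP IP against 4.98 to 5.23 in EYFP input, and from 5.70 to 6.18 in hTyr IP against 4.95 to 5.17 in hTyr input. Sec24c was higher by 0.33 and 0.32, from 6.26 to 6.51 in EYFP IP against 5.98 to 6.24 in EYFP input, and from 6.25 to 6.48 against 5.84 to 6.14 in hTyr mice. Sec24a (0.18 and 0.32) and Sec24d (0.16 and 0.24) did not pass. In hTyr mice Sec24a passed with the mouse as a block (0.32, adjusted p = 0.0433), and Sec24d passed with the block and the length and GC trend removed (0.28, adjusted p = 0.0307), while Sec24a with that trend removed differed by -0.07 in EYFP mice and -0.03 in hTyr mice. Sec24a stood between 3.92 and 4.44 in EYFP IP and 3.69 and 4.12 in EYFP input, and between 3.92 and 4.35 and 3.19 and 4.15 in hTyr mice. Sec24d stood between 3.81 and 4.35 and 3.82 and 4.03 in EYFP mice, and between 3.71 and 4.27 and 3.54 and 4.09 in hTyr mice. Their groups overlapped. Sar1b was higher by 0.36 and 0.51, from 5.98 to 6.46 in EYFP IP against 5.74 to 5.98 in EYFP input, and from 6.07 to 6.51 against 5.74 to 5.89 in hTyr mice, and with the trend removed its EYFP difference was 0.24 (adjusted p = 0.0221). Sar1a differed by 0.13 in EYFP mice (adjusted p = 0.0677) and was higher by 0.25 in hTyr mice (adjusted p = 0.00719, and 0.0537 with the length and GC trend removed). Its values were 7.31 to 7.54 against 7.18 to 7.38 in EYFP mice, and 7.38 to 7.57 against 7.18 to 7.28 in hTyr mice.

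The balance of paralogs was tested within each library, where the scaling of the library drops out. The log2 difference of 2 paralogs in IP was set against that in input of the same mouse, by an exact two-sided sign-flip test over the 11 mice. Of 7 pairs 5 passed an adjusted p of 0.05, with the adjustment made over all 21 tests of paralog pairs. Sec23b against Sec23a stood at -1.72 ± 0.16 in input and at -1.15 ± 0.17 in IP (SD, n = 11), a shift of 0.57 that was upward in 11 of 11 mice (exact p = 0.000977, which is the lowest possible value here, adjusted p = 0.00684). Kdelr2 against Kdelr1 moved from -1.001 ± 0.07 to -0.42 ± 0.17 (SD, n = 11), by 0.58 and in 11 of 11 mice, with the same exact p and adjusted p. Sec24b against Sec24a moved by 0.57, from 1.20 ± 0.27 to 1.77 ± 0.24 (SD, n = 11), upward in 10 of 11 mice (exact test, adjusted p = 0.0103). Sar1b against Sar1a moved by 0.25 in 10 of 11 mice (exact test, adjusted p = 0.0123).

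Copg2 against Copg1 moved by 0.23 in 11 of 11 mice (exact test, adjusted p = 0.00684), but by 0.06 with the length and GC trend removed (exact test, adjusted p = 0.476), an alternative chosen after the data were seen. Arf4 against Arf1 moved by -0.12 and was lower in IP in 9 of 11 mice (exact test, adjusted p = 0.123). That pair passed after quantile normalization (-0.13, adjusted p = 0.0273) and with the length and GC trend removed (-0.31, adjusted p = 0.00513). Sec24d against Sec24c moved by -0.14 (exact test, adjusted p = 0.174).

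**Figure D3:**
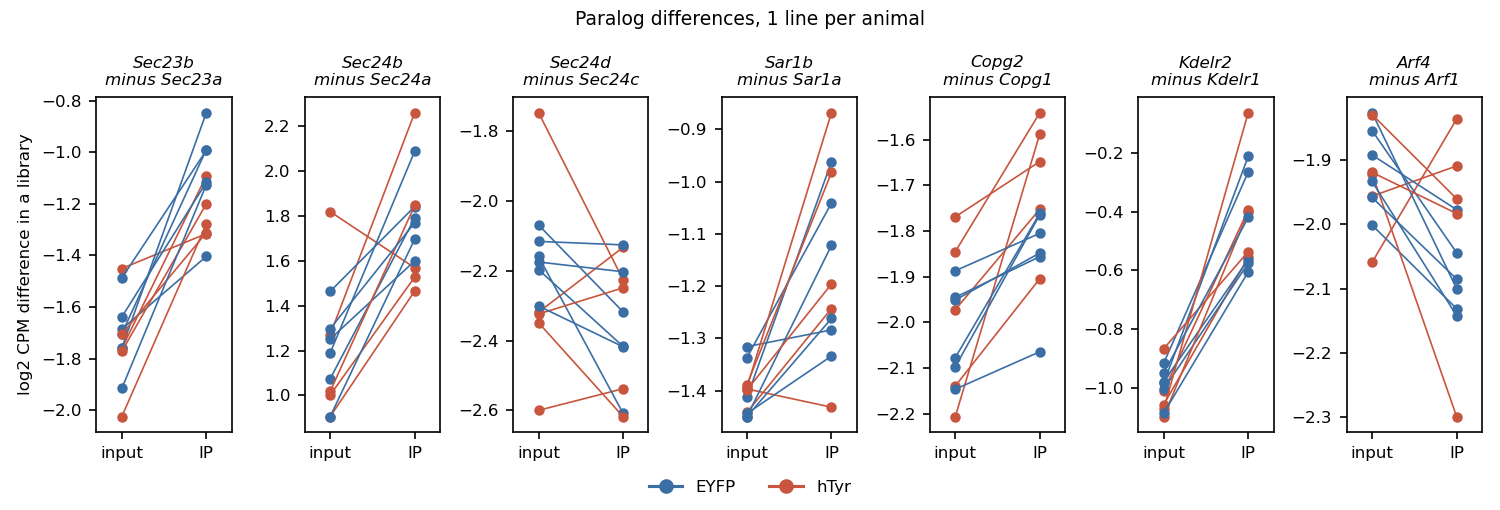
Log2 CPM difference of 7 paralog pairs in input and IP, 1 line per mouse (6 EYFP, 5 hTyr), on separate axes. All 11 lines climb for Sec23b, Copg2 and Kdelr2, 10 of 11 climb for Sec24b and Sar1b, and lines go both ways for Sec24d and Arf4.

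The KDEL receptors, which catch ER chaperones that carry the KDEL tail, differed singly too. Kdelr2 was higher in IP by 0.35 (adjusted p = 0.00233) and 0.55 (adjusted p = 5.15e-05). It ran from 5.07 to 5.40 in EYFP IP against 4.62 to 5.03 in EYFP input, and held 5.33, 5.42, 5.49, 5.50 and 5.52 in hTyr IP against 4.81, 4.85, 4.88, 4.92 and 5.05 in hTyr input, with no overlap. Kdelr1 was lower by 0.19 in EYFP mice (adjusted p = 0.0259, and 0.0738, 0.112 and 0.0823 without mouse IP_505, IP_506 or IP_507) and differed by -0.08 in hTyr mice (adjusted p = 0.442). It stood between 5.55 and 5.81 in EYFP IP and 5.71 and 6.00 in EYFP input, and between 5.58 and 6.04 and 5.86 and 6.02 in hTyr mice.

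The Arf GTPases recruit coatomer and other coats to Golgi membranes, and of 6 genes 1 was higher and 1 lower in each treatment. More passed under other settings, as given for each. Arf2 was higher by 0.26 and 0.33. Arf3, an Arf of the trans-Golgi and one of the more abundant of the 58 genes, was lower by 0.58 (SE 0.11, adjusted p = 0.000326) and 0.56 (SE 0.08, adjusted p = 2.94e-05). Its EYFP libraries ran from 9.02 to 9.66 (median 9.28) in IP and from 9.71 to 10.21 (median 9.76) in input. Its hTyr libraries held 9.14, 9.25, 9.30, 9.32 and 9.32 in IP and 9.70, 9.75, 9.78, 9.92 and 9.999 in input. Arf3 did not overlap between IP and input. Arf1 differed by 0.16 (adjusted p = 0.0645; 0.027 with the mouse as a block) and 0.18 (adjusted p = 0.0731; 0.044 after quantile normalization), and it passed in both with the length and GC trend removed (0.17, adjusted p = 0.0347, and 0.23, adjusted p = 0.0154). Its values ran from 8.91 to 9.16 in EYFP IP against 8.71 to 9.02 in EYFP input and from 8.98 to 9.28 against 8.77 to 9.01 in hTyr mice. Arf4 differed by -0.01 and 0.12, from 6.83 to 7.07 against 6.85 to 7.12 in EYFP mice and from 6.98 to 7.21 against 6.89 to 7.08 in hTyr mice. With the trend removed Arf4 was lower by 0.15 in EYFP mice (adjusted p = 0.0498) and differed by -0.07 in hTyr mice (adjusted p = 0.419). Arf5 did not pass in either treatment, but with the mouse as a block it was higher in EYFP mice (adjusted p = 0.0229), and with the trend removed in both, by 0.24 (adjusted p = 0.00358) and 0.22 (adjusted p = 0.0364). It also passed in EYFP mice without mouse IP_505 or IP_506 (adjusted p = 0.0265 and 0.0423). Arf6 did not pass in either treatment, and in EYFP mice it was lower with the mouse as a block (0.16 lower, adjusted p = 0.027) and after quantile normalization (adjusted p = 0.0447).

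The p24 proteins shuttle between ER and Golgi and carry cargo such as lipid-anchored proteins into COPII vesicles. Of 9 genes 1 was higher and 2 lower in EYFP mice, beside 28.5% and 28.1% of all genes. In hTyr mice 3 were higher and 2 lower, beside 27.4% and 27% of all genes. Tmed5 was higher by 0.64 and 0.85, but with the length and GC trend removed the differences were 0.13 (adjusted p = 0.243) and 0.16 (adjusted p = 0.485). Tmed7 was higher by 0.27 in hTyr mice (adjusted p = 0.0295), and with that trend removed it was lower by 0.27 (adjusted p = 0.0105). Tmed4 was lower by 0.31 in EYFP mice (adjusted p = 0.000552), from 6.18 to 6.39 (median 6.28) in IP against 6.46 to 6.69 (median 6.62) in input. In hTyr mice Tmed4 was lower by 0.22 (adjusted p = 0.0366), with IP at 6.23, 6.23, 6.32, 6.53 and 6.53 and input at 6.50, 6.53, 6.58, 6.65 and 6.70. That call was lost without mouse IP_502, IP_509 or IP_510 (adjusted p = 0.0818, 0.0935 and 0.11) and with a prior variance that does not follow mean expression (adjusted p = 0.0542). Tmed1 differed by -0.16 in EYFP mice (adjusted p = 0.182) and was lower by 0.37 in hTyr mice (adjusted p = 0.0344; 0.133 without mouse IP_501, 0.168 without mouse IP_502 and 0.109 with the trend removed). Its hTyr libraries stood at 3.15, 3.24, 3.47, 3.70 and 3.76 in IP and at 3.60, 3.80, 3.91, 3.93 and 3.95 in input. Tmed2 was the other gene lower in EYFP mice, from 6.55 to 6.83 in IP against 6.78 to 7.07 in input. In hTyr mice Tmed2 differed by -0.13 (adjusted p = 0.190). Tmed10, the most studied p24 protein, differed by -0.12 (adjusted p = 0.0972) and -0.02 (adjusted p = 0.831). It stood between 6.88 and 7.19 in EYFP IP and 7.15 and 7.26 in EYFP input, and between 7.11 and 7.31 and 7.07 and 7.38 in hTyr mice. With the length and GC trend removed Tmed10 was lower by 0.31 (adjusted p = 9.9e-05) and 0.30 (adjusted p = 0.00228).

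TRAPP complexes tether incoming vesicles and activate Rab GTPases at the Golgi. Of 14 subunits 7 were higher and 2 lower in EYFP mice, and 5 higher and 2 lower in hTyr mice. Trappc8 had the largest difference of them. It ran from 5.14 to 6.05 (median 5.81) in EYFP IP against 4.25 to 4.63 (median 4.49) in EYFP input, and held 5.59, 5.70, 5.76, 5.94 and 6.05 in hTyr IP against 3.96, 4.34, 4.40, 4.45 and 4.69 in hTyr input. With no overlap, the difference was 1.20 (SE 0.14, adjusted p = 4.69e-06) and 1.44 (SE 0.13, adjusted p = 1.31e-07). Trappc11 (0.61 and 0.57), Trappc9 (0.52 and 0.48), Trappc2 (0.40 and 0.43) and Trappc13 (0.39 and 0.65) were higher in both treatments, Trappc12 (0.20) and Trappc4 (0.16) in EYFP mice. With the length and GC trend removed Trappc13 stood at 0.11 in EYFP mice (adjusted p = 0.125) and 0.25 in hTyr mice (adjusted p = 0.0079), and Trappc2 at 0.20 (adjusted p = 0.0214) and 0.15 (adjusted p = 0.21). The Trappc4 call was lost after quantile normalization (adjusted p = 0.0956) and without mouse IP_506, IP_507 or IP_511 (adjusted p = 0.0523, 0.0857 and 0.0606), and that of Trappc12 without mouse IP_506 or IP_512 (adjusted p = 0.0588 and 0.0589). In hTyr mice Trappc4 passed with the trend removed (0.18, adjusted p = 0.0435). Trappc10 (-0.17 and -0.21) and Trappc6b (-0.20 and -0.30) were lower in both. Trappc10 did not pass in either with the trend removed (-0.06, adjusted p = 0.346, and -0.08, adjusted p = 0.354). It was also lost without mouse IP_504, IP_505, IP_507 or IP_511 in EYFP mice (adjusted p from 0.059 to 0.13), and without mouse IP_501, IP_502, IP_508 or IP_509 in hTyr mice (0.0621 to 0.112). Trappc6b in hTyr mice held 6.18, 6.26, 6.26, 6.34 and 6.47 in IP and 6.37, 6.58, 6.61, 6.66 and 6.80 in input, and in EYFP mice it ran from 6.36 to 6.64 (median 6.40) and from 6.49 to 6.84 (median 6.66). Its call was lost without EYFP mouse IP_504, IP_507, IP_511 or IP_512 (adjusted p = 0.0866, 0.0909, 0.0529 and 0.15) and, in hTyr mice, without mouse IP_510 (adjusted p = 0.0625).

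Single mice differed in how far the genes shifted. Over the 24 genes higher in both treatments, the median difference of IP and input within a mouse was 0.26 in EYFP mouse IP_505 and 0.43 in EYFP mouse IP_511, and 0.61 to 0.80 in the other 9 mice. These 24 genes were picked for being higher in IP in the same mice. Over all 58 genes the median was 0.08 in mouse IP_505, 0.12 in mouse IP_511 and 0.15 to 0.35 in the other 9 mice. The noradrenergic marker level in IP was 5.89 in mouse IP_505 and 5.60, the lowest of all mice, in mouse IP_511. It was 5.82 and 5.89 in mice IP_507 and IP_508, whose median differences over the 24 genes were 0.62 and 0.61. A link between this level and the shift was not tested. Mouse IP_505 gave the lowest EYFP IP value of Scfd1, Copb1, Copb2, Trappc8 and Sec23b, and without it 34 of the 58 genes passed in EYFP mice, 27 higher and 7 lower. Groups that did not overlap at all were found for 18 genes higher and 3 lower in EYFP mice (16.7% and 13.4% of all genes) and for 25 higher and 3 lower in hTyr mice (20.7% and 16.8% of all genes).

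A further list of 58 pathway genes (tethers, SNAREs, cargo receptors, Golgi matrix and regulators) had 22 higher and 11 lower in EYFP mice and 21 higher and 9 lower in hTyr mice. Of all genes 28.5% were higher and 28.1% lower in EYFP mice, and 27.4% and 27% in hTyr mice. Cog4, of the conserved oligomeric Golgi complex, was higher by 0.67 and 0.69, and Uso1, the p115 tether, by 0.65 and 0.90. Mia3, which packs large cargo such as collagen, was higher by 0.57 and 0.72 and Rab1a, the Rab of ER to Golgi traffic, by 0.40 and 0.66. Golph3 (-0.45 and -0.34), an adaptor of COPI for Golgi enzymes, and Ergic1 (-0.49 and -0.43), a cycling membrane protein, were lower.

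The second comparison, hTyr against EYFP within IP, is the one the series was designed for. None of the 58 genes passed an adjusted p of 0.05 (0 by limma, where 0.0556% of all genes passed). Before adjustment, p was under 0.05 for 6 genes that were higher in hTyr mice and for 0 lower ones, while 2.88% of all genes were higher and 3.31% lower at that level. With voom in limma on the recovered reads the counts were also 0 and 6. Of the 58 genes 40 had a positive difference, with a median of 0.06 beside -0.01 over all genes. By role the medians were 0.02 for COPII, 0.09 for COPI, 0.04 for Arf, 0.08 for p24, 0.18 for the KDEL receptors, 0.02 for TRAPP and 0.28 for the SNARE and Golgi partners. The 58 genes were chosen with earlier results of these data known. Their counts and medians between treatments are not independent evidence of a direction.

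**Figure D4:**
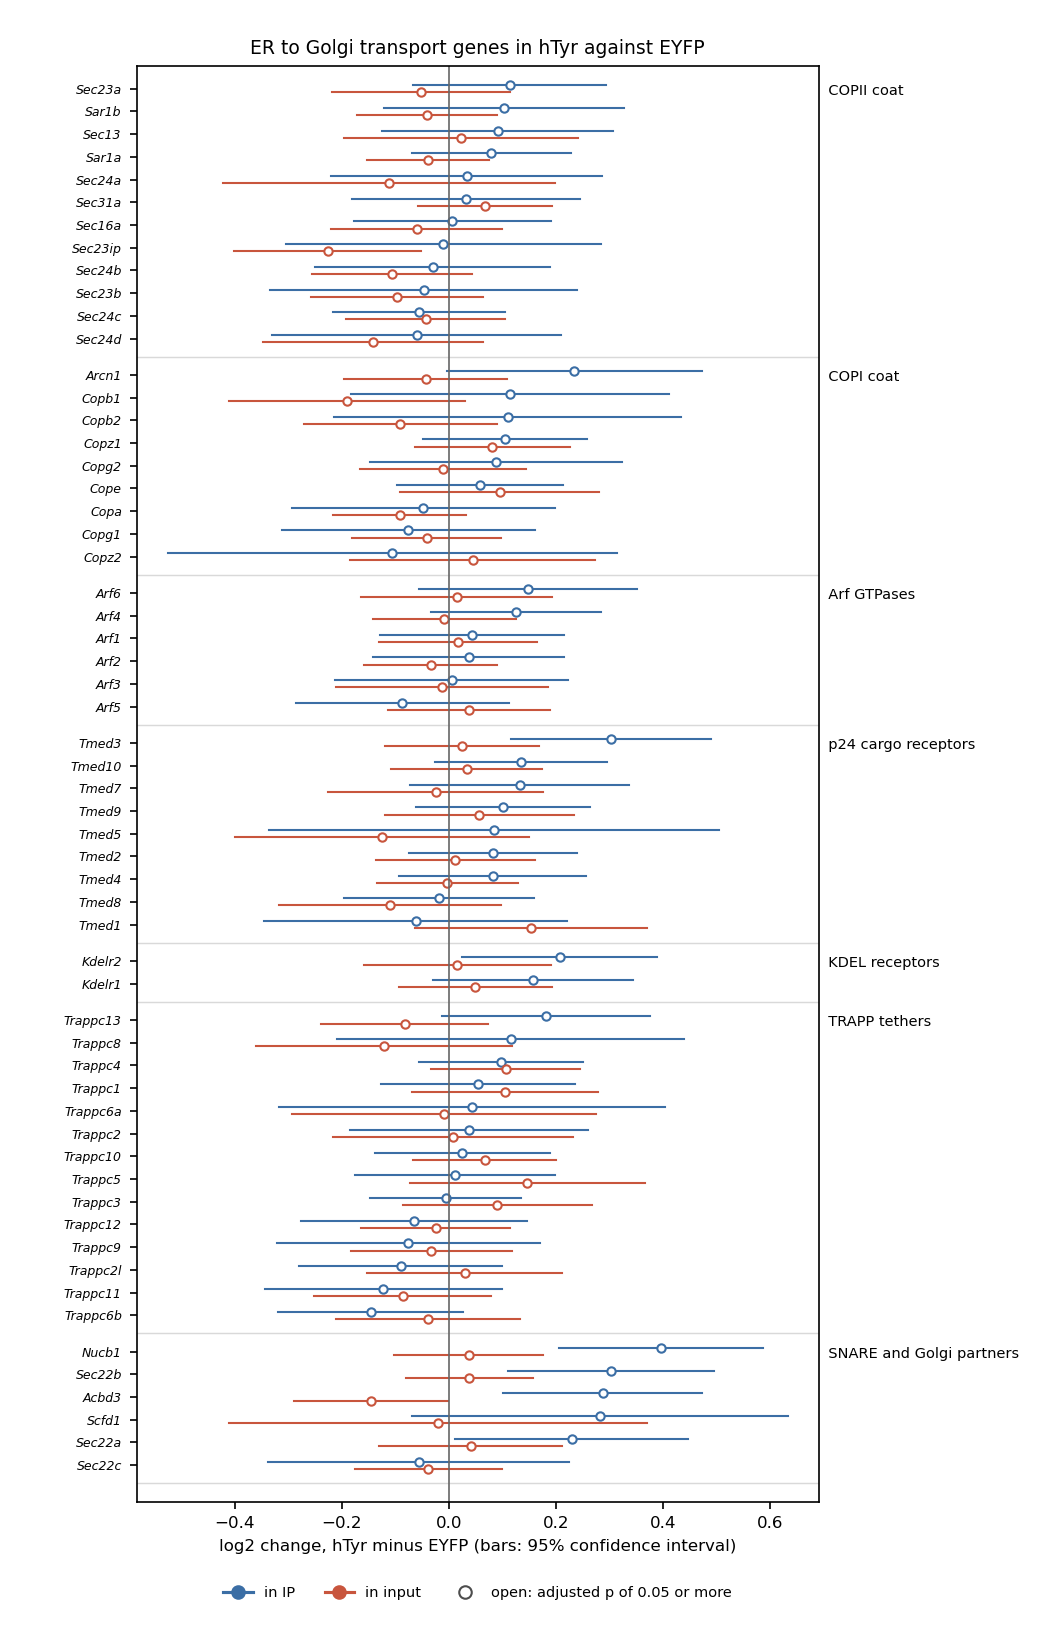
Log2 difference between hTyr and EYFP mice for the 58 genes, by role, in IP and in input; points are fitted differences and bars 95% confidence intervals, and every point is open because none had an adjusted p under 0.05. In IP the bars of Nucb1, Tmed3, Sec22b, Acbd3, Kdelr2 and Sec22a lie above 0.

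Nucb1, which encodes nucleobindin, a calcium-binding protein of the Golgi, had the smallest p (chromosome 7, 45492674 to 45510408). It ran from 6.10 to 6.35 (median 6.21) in EYFP IP and stood at 6.44, 6.48, 6.61, 6.71 and 6.83 in hTyr IP. Every hTyr IP library was above every EYFP IP library, which was so for Nucb1 alone of the 58 genes, 1 in the higher direction and 0 in the lower (0.389% and 0.262% of all genes). The means were 6.22 ± 0.12 (SD, n = 6) and 6.61 ± 0.16 (SD, n = 5), and the difference was 0.40 (SE 0.09, unadjusted p = 0.000408, adjusted p = 0.407), larger than that of 99.0% of all genes. In input Nucb1 ran from 6.14 to 6.40 (median 6.21) in EYFP mice and held 6.15, 6.19, 6.28, 6.33 and 6.38 in hTyr mice, groups that overlapped. With the spread estimated over all 22 libraries, Nucb1 passed (adjusted p = 0.0295), and over the other alternatives and the fits without 1 mouse its adjusted p stayed above 0.05.

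Tmed3, a p24 gene, differed by 0.30 (SE 0.09, adjusted p = 0.560). The other genes with its Golgi stress element ran from -0.09 for Arf5 to 0.08 for Sar1a, and a link of element and difference was not tested. Tmed3 levels overlapped little between treatments. It ran from 5.06 to 5.47 (median 5.27) in EYFP IP and held 5.47, 5.47, 5.64, 5.65 and 5.66 in hTyr IP, so that the groups met at the edge. Sec22b differed by 0.30 (SE 0.09, adjusted p = 0.617), with EYFP IP between 5.69 and 6.06 (median 5.78) and hTyr IP at 5.96, 6.01, 6.09, 6.20 and 6.34. The 1 EYFP library that reached into the hTyr values of Sec22b was that of mouse IP_505. Acbd3, a Golgi adaptor that binds giantin and recruits a lipid kinase, differed by 0.29 (SE 0.09, adjusted p = 0.656), with EYFP IP between 5.22 and 5.58 (median 5.44) and hTyr IP at 5.53, 5.66, 5.71, 5.79 and 5.84. Kdelr2 differed by 0.21 (SE 0.09, adjusted p = 0.787), from a median of 5.29 in EYFP IP to 5.49 in hTyr IP. Sec22a differed by 0.23 (SE 0.10, adjusted p = 0.791), with EYFP IP between 4.07 and 4.36 (median 4.13) and hTyr IP at 4.18, 4.40, 4.44, 4.48 and 4.59.

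**Figure D5:**
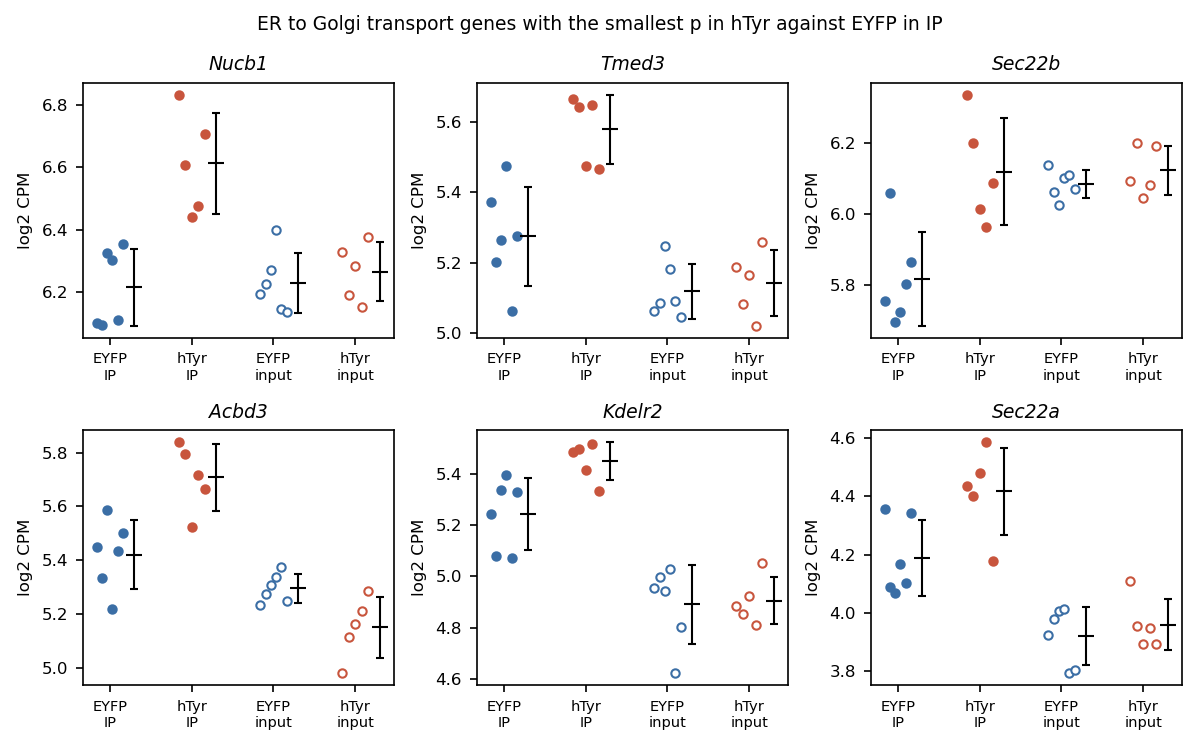
Log2 CPM of the 6 genes with the smallest unadjusted p between hTyr and EYFP in IP, 1 point per library (6 EYFP and 5 hTyr in each fraction), with the mean and SD. For Nucb1 the hTyr IP points lie clear of the EYFP IP points, and for the other 5 genes the IP groups overlap.

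No coat gene had an unadjusted p under 0.05 between hTyr and EYFP in IP. Among the COPII genes the difference ran from -0.06 for Sec24d to 0.11 for Sec23a, and Sec23a had a 95% confidence interval of -0.07 to 0.29. Among the COPI genes it ran from -0.11 for Copz2 to 0.23 for Arcn1, whose interval was -0.004 to 0.47 (adjusted p = 0.803). Copb1 and Copb2, with the largest IP enrichment of the coatomer genes, differed by 0.11 each, with intervals of -0.18 to 0.41 and -0.22 to 0.43. Arf1 differed by 0.04 (interval -0.13 to 0.21), Arf4 by 0.13 (interval -0.03 to 0.28), Tmed10 by 0.13 (interval -0.03 to 0.30) and Kdelr1 by 0.16 (interval -0.03 to 0.34). Scfd1 differed by 0.28 (interval -0.07 to 0.63, adjusted p = 0.835). These intervals leave room for changes of the size fitted for Nucb1 in some of the genes, so a p above the threshold does not show that the groups were equal. None of the 7 paralog pairs passed between treatments in IP or in input by the exact permutation test over all splits of the mice, with differences from -0.16 to 0.16.

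The noradrenergic marker level in IP was 6.06 ± 0.37 in EYFP mice (SD, n = 6) and 6.42 ± 0.58 in hTyr mice (SD, n = 5), with medians of 5.97 and 6.14. Of the hTyr mice IP_501 (7.35) and IP_502 (6.60) had the highest levels, and the other 3 lay between 5.89 and 6.14. These 2 mice also gave the highest hTyr IP values of Sec22b and Acbd3, and IP_501 that of Nucb1. Without mouse IP_501 the differences were 0.34 for Nucb1, 0.25 for Sec22b and 0.25 for Acbd3, and without mouse IP_502 they were 0.40, 0.28 and 0.27. With that level as a covariate 0 of the 58 genes passed and 4 were higher at an unadjusted p under 0.05, with Nucb1 at 0.34, Tmed3 at 0.25, Sec22b at 0.25 and Acbd3 at 0.23. Depth ran from 12654489 to 19043798 reads in hTyr IP and from 15680491 to 20368032 in EYFP IP, and with total reads as a covariate 0 genes passed and Nucb1 stood at 0.46.

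In the pathway list 0 of 58 genes were past the adjusted threshold in IP. At an unadjusted p under 0.05, 5 were higher and 1 lower, beside 2.88% and 3.31% of all genes. Surf4, a cargo receptor for soluble secreted proteins, differed by 0.33 (adjusted p = 0.533). It ran from 5.76 to 6.08 in EYFP IP and from 6.13 to 6.59 in hTyr IP, without overlap. Nucb2, the paralog of Nucb1, differed by 0.62 (adjusted p = 0.683), from a median of 3.68 in EYFP IP to 4.27 in hTyr IP. Stx5a, the Golgi syntaxin that Scfd1 binds, differed by 0.27 (adjusted p = 0.701) and Mcfd2, a cofactor of cargo export, by 0.22 (adjusted p = 0.754). For comparison, 4 of 23 listed ER stress sensors and chaperones passed in IP, beside 0.0556% of all genes. All 4 were higher in hTyr mice, with a median of 0.34 over the list. In input the list had a median of -0.06, with 4 of 23 genes positive. That list was drawn up with earlier results of these samples known and is not independent evidence of its direction.

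In input none of the 58 genes passed (0 by limma, where 0.00794% of all genes passed), and before adjustment p was under 0.05 for 0 higher and 2 lower genes, against 0.992% and 2.04% of all genes. Sec23ip differed by -0.23 (adjusted p = 0.990), with EYFP input between 4.42 and 4.70 and hTyr input between 4.08 and 4.47. Acbd3 differed by -0.15 (adjusted p = 0.990), with EYFP input between 5.23 and 5.38 and hTyr input at 4.98, 5.11, 5.16, 5.21 and 5.28. Copb1 differed by -0.19, Trappc4 by 0.11, Copa by -0.09 and Sec24b by -0.11, all with an adjusted p of 0.990. Trappc4 stood between 6.35 and 6.57 in EYFP input and between 6.41 and 6.71 in hTyr input. Of the pathway list 0 genes passed in input and 1 was lower at an unadjusted p under 0.05, Golgb1 (giantin), which differed by -0.34 (adjusted p = 0.990). Yif1a (0.17), Creb3 (0.12) and Mbtps2 (-0.18) followed it.

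The last comparison asks whether the hTyr difference was itself different in IP and input. For none of the 58 genes did this interaction pass (0 by limma, where 0.00794% of all genes passed). Before adjustment, p was under 0.05 for 5 genes with a larger difference in IP and 0 with a smaller one, against 2.19% and 1.12% of all genes. With the mouse as a block 0 passed and 7 were at an unadjusted p under 0.05. Acbd3 had the largest value, 0.43 (SE 0.11, unadjusted p = 0.000389, adjusted p = 0.455), made up of the higher hTyr values in IP and the lower ones in input given above. Next by unadjusted p came Nucb1 with 0.36 (SE 0.11), Tmed3 with 0.28, Sec22b with 0.26, Trappc13 with 0.26 and Arcn1 with 0.28. The adjusted p was 0.996 for each. Copb1 and Scfd1 had larger values than Tmed3, 0.30 each, but also larger SEs (0.18 and 0.27). Trappc13, a TRAPP subunit, ran from 5.85 to 6.28 in EYFP IP and stood at 6.21, 6.23, 6.28, 6.33 and 6.51 in hTyr IP, and in input it lay between 5.61 and 5.83 in EYFP mice and between 5.44 and 5.80 in hTyr mice. In the pathway list 0 of 58 passed and 3 were at an unadjusted p under 0.05, Surf4 (0.37), Rab1a (0.26) and Mcfd2 (0.20), with Stx5a (0.24) next.

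Several of the genes called between IP and input were called in hTyr mice alone. Nucb1 differed by -0.01 in EYFP mice (adjusted p = 0.884) and was higher in IP by 0.35 in hTyr mice (adjusted p = 0.00369). Acbd3 differed by 0.12 (adjusted p = 0.134) and was higher by 0.56 (adjusted p = 7.69e-05), and Tmed3 by 0.16 (adjusted p = 0.0822) and 0.43 (adjusted p = 0.00046). These differences between treatments are the interaction values above, which did not pass. With the length and GC trend removed Acbd3 was lower in IP by 0.19 in EYFP mice (adjusted p = 0.0459) and differed by 0.11 in hTyr mice (adjusted p = 0.306).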

How the data were processed

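RNA-seq was done on 22 libraries from 11 mice, prepared by Novogene per the labels. The submitters' processing notes name STAR, featureCounts and mm10, without versions. The authors deposited 1 table of log2 values, which proved to be log2 CPM with a pseudocount that averaged 2 reads: whole reads were recovered for 100% of them (tolerance 0.1), and the back-transformed values summed to 972556 to 1040933 per library. The filter, the normalization, the use of strand and any batch are not given in the sources used here, so reads of overlapping or near-identical genes cannot be told apart. Labels name a mouse for each library, and nothing else ties replicates to a litter or day. Read counts carry no molecular identifiers, so depth speaks of counting error only.

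The fits covered all 12596 genes and used limma 3.58.1 (R 4.3.3), with a linear model per gene, empirical Bayes variances that follow mean expression, Benjamini-Hochberg adjustment over all genes and a threshold of 0.05. Paralog differences were tested by exact permutation in Python 3.11.15 with scipy 1.17.1, and 21 tests were adjusted together. Levels per kilobase and the removal of length and GC trends (loess, span 0.4) used the mouse GENCODE annotation of GRCm38, with a value for 12379 genes (98.28%) and for all 58 described. The pairing of IP and input comes from the mouse number in the titles: deviations from group means correlated by 0.279 to 0.626 within a mouse (mean 0.448, n = 11), so the fit with the mouse as a block was run beside the main one. The main fits of IP against input and of the interaction did not use this pairing. Genes named singly were those past the threshold with the 5 largest rises and 5 largest falls in a comparison, the 6 with the smallest p where fewer than 5 passed, a set of coat genes and 4 pathway genes per comparison. The genes, lists and tests were chosen with earlier results of these data known. Tests on simulated data recovered most of the larger changes put in. Every change put in was larger than any hTyr against EYFP difference fitted for the 58 genes. Recovery of differences that small was not tested. Tissue and cell type markers for microglia and endothelium were also scored: 9 of 9 microglia markers averaged 4.29 to 5.19 in IP and 4.32 to 5.04 in input, and 5 of 5 endothelial markers 2.36 to 3.77 and 2.61 to 3.28. Promoters were matched by symbol for 48 of the 58 genes. The other genes are Trappc1, Tmed2, Trappc9, Arf6, Acbd3, Tmed7, Trappc8, Kdelr2, Arcn1 and Trappc4.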

Additional observations from a re-analysis of the deposited data

Results flagged for a closer look

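One value stood apart from its group by Dixon's test. Copb2, the beta-prime subunit of coatomer, stood at 5.82 log2 CPM in the hTyr input library of mouse IP_510, where the next highest library of the group was at 5.54, a gap of 0.754 of the group's whole range. Chance flags about 1 in 20 groups, which would be 6.8 of the 136 groups tested over 34 genes, and 1 was found.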

How the results depend on the processing

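Counts of genes between IP and input kept within 1.5 times of the reported ones under every alternative that used all mice, and without any 1 mouse 31 to 34 genes passed in EYFP mice and 31 to 34 in hTyr mice, of which 3 to 6 were lower in hTyr mice (3 without mouse IP_502). With the mouse as a replicate block 38 passed in EYFP mice and 37 in hTyr mice, and 0 interactions. Between treatments in IP the spread shared over all libraries gave 1 gene, Nucb1. Genes lower in hTyr input at an unadjusted p under 0.05 numbered 1 after quantile normalization, with length and GC trends removed, and with the noradrenergic level as covariate, and 0 with the shared spread and with total reads as covariate. They numbered 1 to 4 without 1 mouse, and in IP 0 to 1. Interactions at that level numbered 3 with length and GC trends removed and 3 to 6 without 1 mouse. Without 1 mouse 0 to 1 paralog pairs passed between treatments in IP (1 without mouse IP_510) and 0 to 1 in input (1 without mouse IP_509). Some differences between IP and input changed sign. With length and GC trends removed, with or without the replicate block, values in EYFP mice were -0.0669 for Sec24a, -0.2837 for Tmed7, 0.0325 for Trappc6a, -0.1886 for Acbd3 and 0.0962 for Nucb1. In hTyr mice they were -0.0328 for Sec24a, -0.0742 for Arf4, 0.1598 for Arf6, -0.2736 for Tmed7, 0.0434 for Trappc3 and 0.2104 for Trappc6a. Of these Tmed7 in hTyr mice had passed in the other direction. After quantile normalization Trappc5 was at -0.0219 in EYFP mice, and Sec31a at -0.0142, Trappc1 at -0.0462 and Trappc2l at -0.0646 in hTyr mice. Without 1 mouse, values in EYFP mice ran from -0.0239 to 0.0016 for Arf4, -0.0592 to 0.0098 for Nucb1 and -0.0147 to 0.0785 for Trappc5. In hTyr mice they ran from -0.0648 to 0.0259 for Sec22b, -0.0331 to 0.0858 for Sec31a, -0.0885 to 0.0187 for Tmed10, -0.0646 to 0.0035 for Sec16a, -0.0463 to 0.1042 for Arf5, -0.0964 to 0.0385 for Arf6 and -0.1629 to 0.0389 for Tmed8. The ranges were -0.0736 to 0.0317 for Tmed9, -0.0443 to 0.0824 for Trappc1, -0.0826 to 0.0715 for Trappc2l, -0.0673 to 0.03 for Trappc3 and -0.1222 to 0.0993 for Trappc6a. Between treatments in IP Copz2 was at 0.0202 with the noradrenergic level as covariate, and without 1 mouse the values ran from -0.2341 to 0.0033 for Copz2, -0.1285 to 0.0105 for Sec24d, -0.023 to 0.2035 for Copb2 and -0.0059 to 0.0689 for Arf1. The cause was not tested. Of the single-gene values, which covered all 58 genes between IP and input and the genes named in the other comparisons, 1972 kept direction and side of the threshold, 41 passed it newly, 62 no longer passed and 58 changed sign. Depth was lowest for Copz2, with as few as 55 reads in hTyr IP.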
